A study of Mus musculus with 15 samples.

Results

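The genes described are the 34 interferon response genes of a list of mouse symbols, each found by its Ensembl identifier among the 37583 genes counted in 15 RNA-seq libraries of mouse skin tumour cells. All 34 had a row, and 33 passed the filter on low counts that left 14652 genes for testing. Cmpk2 did not pass. The list was not chosen by a measured value of these libraries, but it was drawn up with earlier results of these data known.

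Tumour cells were sorted by flow cytometry into 3 populations. Integrin alpha 6 (a6, gene Itga6) and CD34 are surface proteins, and the sort kept a6-high cells with CD34, a6-high cells without it and a6-low cells without it. These are called CD34-positive cells, CD34-negative a6-high cells and, for short, a6-low cells. SIRT6 KO animals carried K14-cre with SIRT6 flox/flox, where SIRT6 is a histone deacetylase and the K14 promoter is active in keratinocytes, so the deletion is aimed at those cells. WT animals were the controls, and all animals were C57BL/6, whose ages are not given in the labels. All groups shared the chemical induction of tumours with DMBA, a mutagen, and TPA, a tumour promoter, for more than 24 weeks. Each population had 2 KO and 3 WT libraries, numbered as replicates 1 and 2 and as replicates 1 to 3. Values of a group are given in the order of these numbers. Whether each replicate was a separate animal is not stated in the labels. The p-values thus rest on the spread between libraries, and that spread may be technical in part.

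Type I and type III interferons are secreted by cells that sense viral or misplaced nucleic acid. They bind receptors that work through the kinases JAK1 and TYK2. A complex that holds STAT2 and IRF9 then binds the interferon-stimulated response element (ISRE) in promoters and switches on antiviral genes. Interferon gamma, made mainly by T and natural killer cells, acts on an overlapping set of genes. Keratinocytes respond to both kinds of interferon. The 34 genes include parts of the ISRE-binding complex, sensors of nucleic acid, and antiviral effectors.

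Promoter sequences are shown for the ISRE, and whether a match goes with the levels described below was not tested. Start-site windows of RefSeq (GRCm38.p6, from 250 bases before to 50 bases after the annotated start, 300 in all) were at hand for 25 of the 34 genes. The count files use another build, mm9, so the windows serve as sequence only. The ISRE core was searched as GAAANNGAAA on the gene strand and as TTTCNNTTTC, its complement, on the other. At least 1 window held a match for 13 of the 25 genes, against 3.99% of the 27025 genes in the table, and 12 had none. The 250 bases before the start are printed for the 5 genes with at least 2 matches there, and for Oasl2, which had none there or after its start and was chosen after its values were seen. Capitals mark matches, and neighbouring matches of Isg15, Oas1a and Bst2 overlap.
Ifit1 promoter, chr19:34640639-34640888 (+ strand): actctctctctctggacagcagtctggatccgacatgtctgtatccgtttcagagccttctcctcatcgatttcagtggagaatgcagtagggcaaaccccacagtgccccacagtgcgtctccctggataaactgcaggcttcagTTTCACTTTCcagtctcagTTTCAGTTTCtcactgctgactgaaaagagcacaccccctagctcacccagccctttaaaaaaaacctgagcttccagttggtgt
Ifit3 promoter, chr19:34583279-34583528 (+ strand): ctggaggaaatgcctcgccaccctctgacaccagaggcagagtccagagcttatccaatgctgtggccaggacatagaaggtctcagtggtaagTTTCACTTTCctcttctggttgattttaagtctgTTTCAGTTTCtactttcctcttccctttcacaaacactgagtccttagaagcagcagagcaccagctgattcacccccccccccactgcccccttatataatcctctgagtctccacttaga
Isg15 promoter, chr4:156200819-156201068 (- strand): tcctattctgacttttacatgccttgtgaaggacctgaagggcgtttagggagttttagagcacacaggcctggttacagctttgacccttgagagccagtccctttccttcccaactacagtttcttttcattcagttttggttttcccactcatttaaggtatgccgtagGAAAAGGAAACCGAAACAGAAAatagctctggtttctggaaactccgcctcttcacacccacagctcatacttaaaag
Oas1a promoter, chr5:120907526-120907775 (- strand): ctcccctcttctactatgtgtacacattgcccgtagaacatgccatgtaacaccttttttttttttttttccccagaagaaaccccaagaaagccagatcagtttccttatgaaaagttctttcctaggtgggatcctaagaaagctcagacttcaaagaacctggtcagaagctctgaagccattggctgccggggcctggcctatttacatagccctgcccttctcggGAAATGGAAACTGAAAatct
Bst2 promoter, chr8:71537473-71537722 (- strand): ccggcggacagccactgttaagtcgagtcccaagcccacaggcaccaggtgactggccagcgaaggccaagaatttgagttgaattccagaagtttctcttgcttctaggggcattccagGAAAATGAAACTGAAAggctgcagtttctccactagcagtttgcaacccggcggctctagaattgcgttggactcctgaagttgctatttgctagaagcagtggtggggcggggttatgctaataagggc
Oasl2 promoter, chr5:114896684-114896933 (+ strand): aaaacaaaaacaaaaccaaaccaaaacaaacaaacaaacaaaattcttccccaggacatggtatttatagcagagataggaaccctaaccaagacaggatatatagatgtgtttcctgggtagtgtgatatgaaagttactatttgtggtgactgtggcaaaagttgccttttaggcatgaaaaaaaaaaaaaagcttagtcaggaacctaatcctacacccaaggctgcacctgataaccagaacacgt
In Ifit1 the matches began 104 and 85 bases before the start, and in Ifit3 156 and 122 bases before it. The 3 overlapping matches of Isg15 began 78, 72 and 66 bases before the start. In Oas1a they began 20 and 14 bases and in Bst2 130 and 124 bases before it. Rsad2, Oas3, Stat2 and Cxcl10 each had a single match before the start. Ifitm3 had 2 matches, both after the start, and Ddx58, Ifih1 and Eif2ak2 each had 1 there. Besides Oasl2, no match was found for Irf7, Irf9, Ifi44, Xaf1, Trim25, Herc6, Ifit2, Isg20, Oasl1, Ifi35 and Cmpk2. A match is a run of letters and was not tested for binding here.

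Depth ran from 10.08 to 28.62 M counts per library (median 20.27 M; M is 1e6), and a gene at 0 counts in a library can still be present at up to 0.109 to 0.333 CPM (counts per 1e6 counts of the TMM-scaled library total; the limit is 3 counts). Such limits cover counting error only. The 10 keratinocyte marker genes, Krt14 and Krt5 among them, summed to between 38268 and 85820 CPM in every library. Cd34 was at 163 to 214 CPM in the CD34-positive libraries and at 4.50 to 40.2 CPM in all others. Itga6 was at 67.8 to 470 CPM in the a6-low libraries, where KO replicate 2 (445 CPM) and WT replicate 1 (470 CPM) reached the 359 to 460 CPM of the CD34-negative a6-high libraries and so go against their label. Sirt6 had 5.07 to 8.52 CPM in KO and 4.45 to 10.5 CPM in WT libraries, and whether the floxed exons were lost cannot be read from counts per gene. The Y-linked gene Ddx3y had 51.8 to 74.9 CPM in all libraries of KO replicate 2, against at most 0.222 CPM in the other 12.

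Most of the 34 genes were high together in 2 libraries, the CD34-negative a6-high and the CD34-negative a6-low library of KO replicate 1. The highest of the 15 values lay in the a6-high library of this replicate for 21 genes and in its a6-low library for 7. In 26 of the 34 both libraries were above all other 13, which held for 2.21% of the 14652 genes tested. The 8 exceptions were Ifit2, Isg20, Oasl1, Cxcl10, Ddx58, Ifi35, Ifitm3 and Cmpk2. The median level over the 34 genes was 13.3 CPM in the a6-high and 7.61 CPM in the a6-low library, against 0.504 to 2.29 CPM in the other 13. No gene of the list was at 0 counts in either library, while 2 to 10 genes were at 0 in each of the others. At least 10 CPM was reached by 18 and 16 genes, against 2 to 9 genes in the others.

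The third library of KO replicate 1, sorted as CD34-positive, had the lowest median of all 15, 0.504 CPM. KO replicate 2 had medians of 0.754 CPM in CD34-positive, 0.613 CPM in CD34-negative a6-high and 1.24 CPM in a6-low cells. The first and the last lay within the WT range of their population, and the second lay below the 0.805 to 1.58 CPM of WT. WT replicate 2 had the highest median among WT libraries in each population, 2.29 CPM in CD34-positive, 1.58 CPM in CD34-negative a6-high and 1.33 CPM in a6-low cells. Since the 2 KO replicates differed in this way, the median of the list in each comparison that uses the CD34-negative libraries of KO replicate 1 is also given without them.

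**Figure D1:**
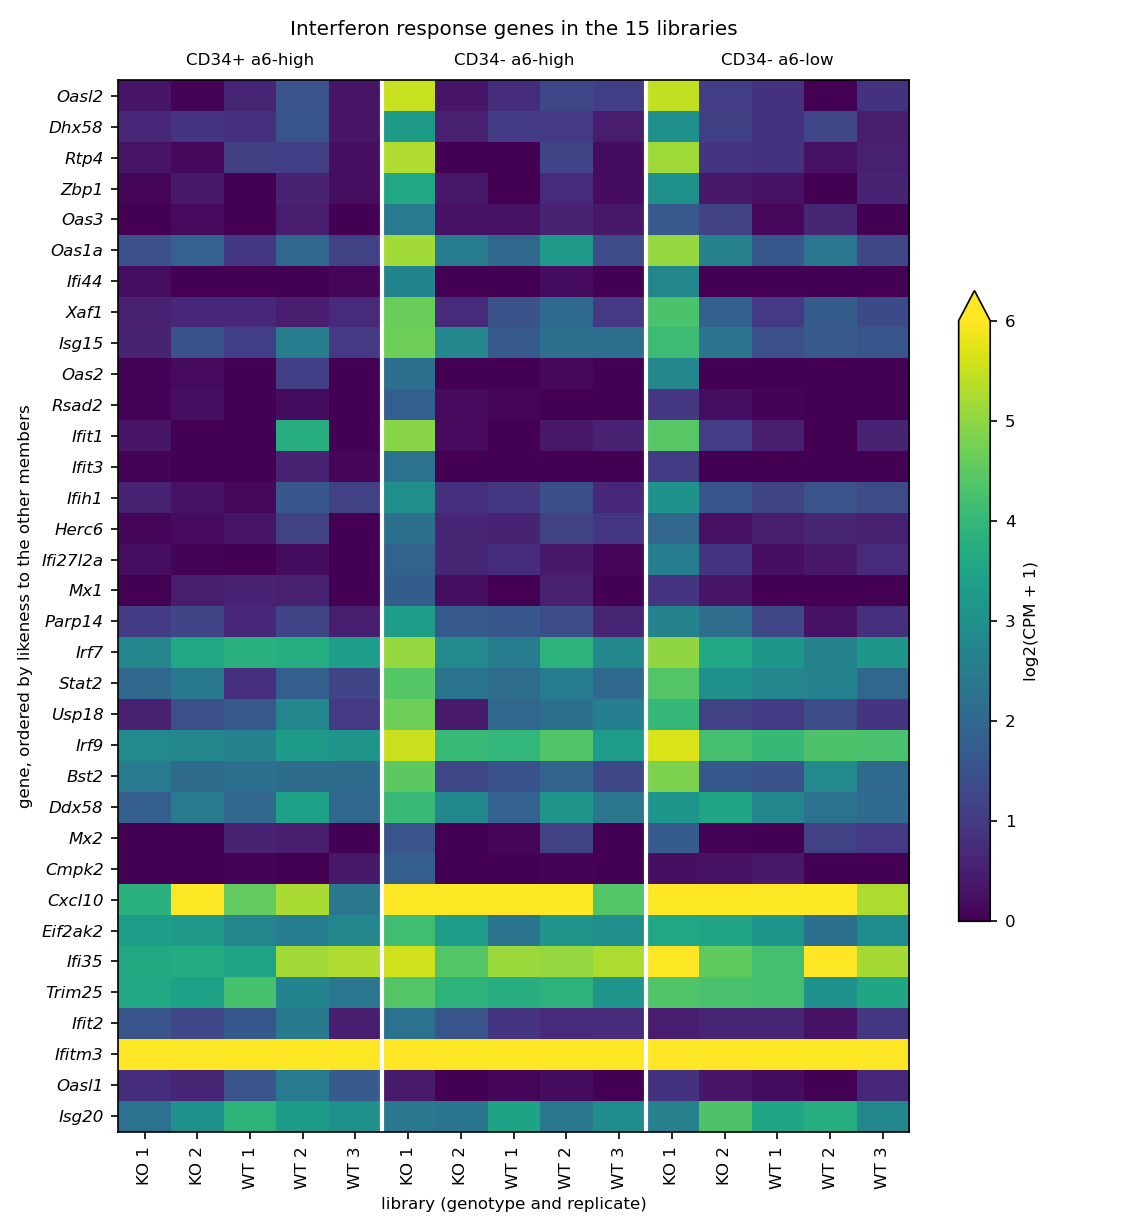
Level of each of the 34 interferon response genes (rows) in each of the 15 libraries (columns, KO left of WT within each population), as log2(CPM + 1) with the colour capped at 6. The CD34-negative a6-high and a6-low columns of KO replicate 1 have the highest values in most rows, and Isg20, Oasl1, Ifitm3 and Ifit2 do not share the pattern.

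The genes that transmit the signal come first. IRF9 is the DNA-binding part of the ISRE complex. Irf9 in CD34-positive cells had 6.17 and 5.85 CPM in KO libraries, against 5.17, 8.58 and 7.54 CPM in WT libraries. CD34-negative a6-high cells had 45.2 and 15.6 CPM in KO libraries, against 14.7, 19.7 and 8.89 CPM in WT libraries. The a6-low cells had 49.9 and 17.8 CPM in KO libraries, against 15.1, 18.9 and 18.4 CPM in WT libraries. The CD34-positive libraries all lay below the CD34-negative a6-high ones, in both genotypes. Stat2, its partner in the complex, had 20.3 and 19.9 CPM in the CD34-negative a6-high and a6-low libraries of KO replicate 1, against 0.765 to 7.09 CPM in the other 13. Irf7, a factor that amplifies interferon production, had 32.3 and 31.0 CPM there, against 4.83 to 13.8 CPM.

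Several of the genes encode sensors of nucleic acid or their regulators. Ifih1 (MDA5, a sensor of long double-stranded RNA) had 6.89 and 7.27 CPM in the CD34-negative a6-high and a6-low libraries of KO replicate 1, against 0.0957 to 2.11 CPM in the other 13. Dhx58 (LGP2, which modulates the RNA sensors) had 8.71 and 7.01 CPM, against 0.246 to 1.96 CPM. Zbp1, a sensor of Z-form nucleic acid, had 11.1 and 7.12 CPM, against 0 to 0.669 CPM, which is the widest gap among the sensors. Eif2ak2 (PKR, a kinase that stops translation on double-stranded RNA) had 16.8 and 11.1 CPM, against 3.66 to 10.3 CPM. Trim25, the ubiquitin ligase that activates RIG-I, had 20.2 and 19.6 CPM, against 4.10 to 18.5 CPM, so that its gap was narrow. Ddx58, RIG-I itself, had 15.4 and 7.96 CPM, and its other libraries reached 10.7 CPM.

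Isg15, Usp18 and Herc6 form the ISG15 system, in which the ubiquitin-like ISG15 is joined to proteins by HERC6 in the mouse and removed by USP18, which also damps receptor signalling. Isg15 in CD34-positive cells had 0.504 and 1.87 CPM in KO libraries, against 1.15, 4.73 and 0.983 CPM in WT libraries. Isg15 in CD34-negative a6-high cells had 24.7 and 5.91 CPM in KO libraries, against 2.23, 3.63 and 3.53 CPM in WT libraries. For Isg15 in a6-low cells, the values were 16.4 and 3.98 CPM in KO libraries, against 1.74, 2.22 and 2.05 CPM in WT libraries. KO lay above WT without overlap in both CD34-negative populations, by a small margin in replicate 2, and overlapped it in CD34-positive cells. Usp18 had 24.5 and 14.9 CPM in the CD34-negative a6-high and a6-low libraries of KO replicate 1, against 0.35 to 5.82 CPM in the other 13. Herc6 had 3.67 and 2.94 CPM, against 0 to 1.24 CPM.

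Ifit proteins bind viral RNA, and the Oas enzymes make the oligoadenylates that activate RNase L. Ifit1 in CD34-positive cells had 0.294 and 0 CPM in KO libraries, against 0, 12.3 and 0 CPM in WT libraries, so that 1 WT library stood far above the others. Ifit1 in CD34-negative a6-high cells had 29.8 and 0.131 CPM in KO libraries, against 0, 0.334 and 0.46 CPM in WT libraries. For Ifit1 in a6-low cells, the values were 20.7 and 1.12 CPM in KO libraries, against 0.423, 0 and 0.512 CPM in WT libraries. In both CD34-negative populations KO replicate 1 was high, and the remaining libraries reached at most 1.12 CPM. Ifit3 followed with 3.79 and 1.09 CPM in the CD34-negative a6-high and a6-low libraries of KO replicate 1, against at most 0.509 CPM in the others. Its paralog Ifit3b had 0.795 and 0.654 CPM there and none elsewhere. Reads that align to both genes were not counted, so the level of Ifit3 may be understated.

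Ifit2 did not share this pattern. Ifit2 in CD34-positive cells had 2.01 and 1.46 CPM in KO libraries, against 2.15, 4.36 and 0.41 CPM in WT libraries. Ifit2 in CD34-negative a6-high cells had 3.71 and 1.97 CPM in KO libraries, against 0.865, 0.669 and 0.69 CPM in WT libraries. For Ifit2 in a6-low cells, the values were 0.4 and 0.539 CPM in KO libraries, against 0.564, 0.222 and 0.961 CPM in WT libraries. Its highest level lay in a WT CD34-positive library, and the a6-low library of KO replicate 1 was among its low ones.

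Oas1a in CD34-positive cells had 1.76 and 2.69 CPM in KO libraries, against 0.957, 2.98 and 1.23 CPM in WT libraries. Oas1a in CD34-negative a6-high cells had 35.2 and 4.73 CPM in KO libraries, against 3.1, 8.4 and 1.69 CPM in WT libraries. For Oas1a in a6-low cells, the values were 32.2 and 5.35 CPM in KO libraries, against 2.12, 4.1 and 1.41 CPM in WT libraries. Both KO a6-low libraries were above the WT ones, whereas the groups overlapped in the other populations. Oasl2, of the same family, had 44.2 and 43.0 CPM in the CD34-negative a6-high and a6-low libraries of KO replicate 1, against 0 to 1.89 CPM in the other 13, so that a gene low everywhere else reached the level of Irf9 there. Oas2 had 3.56 and 5.85 CPM there, against at most 1.16 CPM, and Oas3 had 4.62 and 2.22 CPM, against at most 1.24 CPM.

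Oasl1, which in the mouse holds back translation of Irf7 mRNA, went the other way between populations. Oasl1 in CD34-positive cells had 0.713 and 0.548 CPM in KO libraries, against 1.91, 4.43 and 2.29 CPM in WT libraries. Oasl1 in CD34-negative a6-high cells had 0.341 and 0 CPM in KO libraries, against 0.0721, 0.143 and 0 CPM in WT libraries. For Oasl1 in a6-low cells, the values were 0.836 and 0.29 CPM in KO libraries, against 0.141, 0 and 0.577 CPM in WT libraries. All 5 CD34-positive libraries were above all 5 CD34-negative a6-high ones, and within CD34-positive cells the KO libraries were below the WT ones. Isg20 encodes an exonuclease. Isg20 in CD34-positive cells had 3.82 and 7.03 CPM in KO libraries, against 14.0, 8.72 and 7.13 CPM in WT libraries. Isg20 in CD34-negative a6-high cells had 4.32 and 4.07 CPM in KO libraries, against 10.2, 4.25 and 6.59 CPM in WT libraries. For Isg20 in a6-low cells, the values were 5.12 and 18.9 CPM in KO libraries, against 10.5, 12.4 and 5.96 CPM in WT libraries. KO replicate 1 was the lowest library of CD34-positive and of a6-low cells, and the single highest level was in the a6-low library of KO replicate 2.

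**Figure D2:**
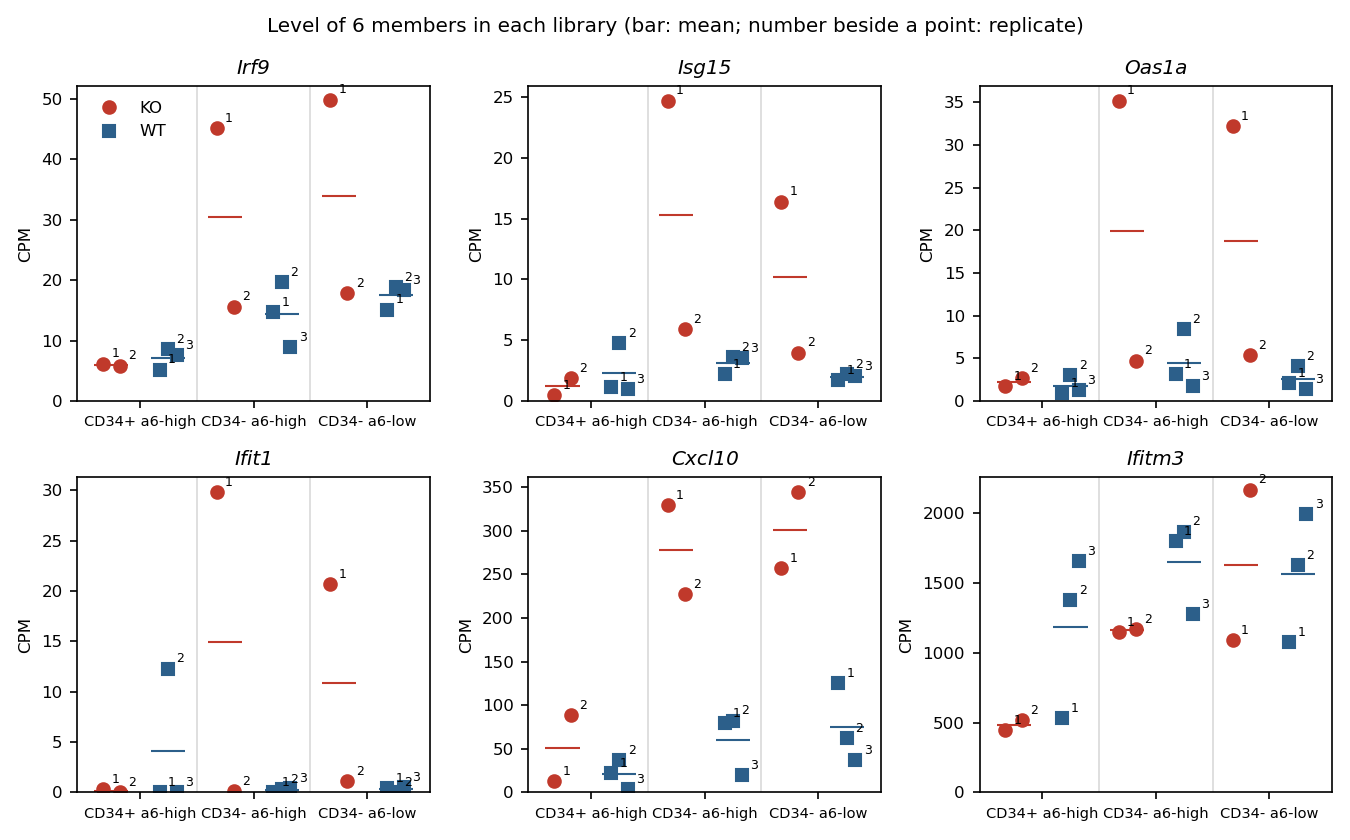
Level in CPM of Irf9, Isg15, Oas1a, Ifit1, Cxcl10 and Ifitm3 in each library, 1 panel per gene, with KO left of WT within each population; each point is a library with its replicate number and the bar is the group mean. Both CD34-negative libraries of KO replicate 1 stand above the other 13 for Irf9 (45.2 and 49.9 CPM), Isg15, Oas1a and Ifit1, but not for Cxcl10 and Ifitm3.

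The remaining effectors act on viral entry, budding or replication. Mx proteins are dynamin-like GTPases, and C57BL/6 animals carry a defective Mx1 allele that yields little intact mRNA. Mx1 in CD34-positive cells had 0 and 0.365 CPM in KO libraries, against 0.478, 0.436 and 0 CPM in WT libraries. Mx1 in CD34-negative a6-high cells had 2.42 and 0.175 CPM in KO libraries, against 0, 0.43 and 0 CPM in WT libraries. For Mx1 in a6-low cells, the values were 0.872 and 0.29 CPM in KO libraries, against 0, 0 and 0 CPM in WT libraries. KO replicate 1 again held the 2 highest levels, at few counts. Mx2 had 1.89 and 2.36 CPM in the same libraries, against at most 1.24 CPM. Rsad2 (viperin) makes a chain-terminating nucleotide, and Cmpk2, next to it in the genome, encodes a nucleotide kinase. Rsad2 in CD34-positive cells had 0.042 and 0.183 CPM in KO libraries, against 0, 0.145 and 0 CPM in WT libraries. Rsad2 in CD34-negative a6-high cells had 2.46 and 0.131 CPM in KO libraries, against 0.0721, 0 and 0 CPM in WT libraries. For Rsad2 in a6-low cells, the values were 0.945 and 0.166 CPM in KO libraries, against 0.047, 0 and 0 CPM in WT libraries. Both KO libraries were above all WT libraries in each CD34-negative population, though the second by only a few counts. Cmpk2 had 2.50 CPM in the CD34-negative a6-high but only 0.182 CPM in the a6-low library of KO replicate 1, against at most 0.329 CPM in the others.

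Bst2 (tetherin) holds budding virions at the cell surface. Bst2 in CD34-positive cells had 4.66 and 3.2 CPM in KO libraries, against 3.54, 3.34 and 3.36 CPM in WT libraries. Bst2 in CD34-negative a6-high cells had 21.5 and 1.44 CPM in KO libraries, against 1.87, 2.87 and 1.46 CPM in WT libraries. For Bst2 in a6-low cells, the values were 27.2 and 2.16 CPM in KO libraries, against 1.79, 6.1 and 3.14 CPM in WT libraries. The contrast was between the CD34-negative libraries of KO replicate 1 and all others, and in a6-high cells KO replicate 2 was the lowest of 5. Ifitm3, a membrane protein that blocks virus entry, was the most abundant gene of the list at 1942 CPM per kb of exon on average. Ifitm3 in CD34-positive cells had 445 and 517 CPM in KO libraries, against 533, 1375 and 1655 CPM in WT libraries. Ifitm3 in CD34-negative a6-high cells had 1150.2 and 1172 CPM in KO libraries, against 1802, 1868 and 1275 CPM in WT libraries. For Ifitm3 in a6-low cells, the values were 1092 and 2169.9 CPM in KO libraries, against 1077, 1629 and 1994 CPM in WT libraries. KO was below WT without overlap in both a6-high populations, and the a6-low groups overlapped.

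Parp14 is an ADP-ribosyltransferase. Parp14 in CD34-positive cells had 1.09 and 1.37 CPM in KO libraries, against 0.622, 1.38 and 0.41 CPM in WT libraries. Parp14 in CD34-negative a6-high cells had 9.36 and 2.23 CPM in KO libraries, against 2.09, 1.67 and 0.537 CPM in WT libraries. For Parp14 in a6-low cells, the values were 5.45 and 3.44 CPM in KO libraries, against 1.41, 0.222 and 0.769 CPM in WT libraries. Both KO libraries exceeded the WT ones in each CD34-negative population. Xaf1 binds the apoptosis inhibitor XIAP. Xaf1 in CD34-positive cells had 0.462 and 0.594 CPM in KO libraries, against 0.622, 0.364 and 0.656 CPM in WT libraries. Xaf1 in CD34-negative a6-high cells had 24.0 and 0.656 CPM in KO libraries, against 1.8, 3.15 and 0.997 CPM in WT libraries. For Xaf1 in a6-low cells, the values were 18.8 and 2.61 CPM in KO libraries, against 0.987, 2.33 and 1.54 CPM in WT libraries. All CD34-positive libraries were within 0.364 to 0.656 CPM, and the CD34-negative a6-high ones began just above it, where the closest pair of libraries has the same rounded value.

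Ifi27l2a in CD34-positive cells had 0.168 and 0.0457 CPM in KO libraries, against 0, 0.145 and 0 CPM in WT libraries. Ifi27l2a in CD34-negative a6-high cells had 2.8 and 0.569 CPM in KO libraries, against 0.721, 0.334 and 0.0767 CPM in WT libraries. For Ifi27l2a in a6-low cells, the values were 4.94 and 0.912 CPM in KO libraries, against 0.188, 0.333 and 0.641 CPM in WT libraries. Only the a6-low groups did not overlap, with KO above WT. Ifi35, a partner of the protein NMI, shares 16.79% of its exon length with an antisense gene in the gene annotation used here. Reads without strand from the shared part cannot be assigned to either gene. Whether the count files left such reads out is not known, since their annotation is not given. Ifi35 in CD34-positive cells had 11.5 and 11.9 CPM in KO libraries, against 10.3, 34.8 and 37.9 CPM in WT libraries. Ifi35 in CD34-negative a6-high cells had 46.4 and 20.1 CPM in KO libraries, against 33.5, 32.2 and 37.3 CPM in WT libraries. For Ifi35 in a6-low cells, the values were 69.7 and 22.2 CPM in KO libraries, against 17.8, 74.0 and 35.5 CPM in WT libraries. The groups overlapped in every population, and WT replicate 2 held the highest level. Rtp4 had 38.1 and 34.2 CPM in the CD34-negative a6-high and a6-low libraries of KO replicate 1, against 0 to 1.38 CPM in the other 13, and Ifi44 had 5.53 and 5.74 CPM, against at most 0.168 CPM.

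Cxcl10 encodes a chemokine that draws T and natural killer cells through CXCR3. Cxcl10 in CD34-positive cells had 13.2 and 88.2 CPM in KO libraries, against 22.5, 36.6 and 4.18 CPM in WT libraries. Cxcl10 in CD34-negative a6-high cells had 329 and 227 CPM in KO libraries, against 79.2, 82.2 and 20.2 CPM in WT libraries. For Cxcl10 in a6-low cells, the values were 257 and 344 CPM in KO libraries, against 125, 62.0 and 37.4 CPM in WT libraries. Both KO replicates were above all WT libraries in each CD34-negative population. The CD34-positive groups overlapped. Per kb of exon Cxcl10 was the second most abundant gene of the list, at 51.1 CPM per kb on average, followed by Ifi35 at 19.1, Isg15 at 6.67 and Bst2 at 6.47 CPM per kb. The lowest was Cmpk2 at 0.0583 CPM per kb.

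CD34-positive a6-high cells were compared with CD34-negative a6-high cells over both genotypes. Irf9 fell in CD34-positive cells, with a log2 difference of -1.68 ± 0.36 (SE; 3.21-fold lower; adjusted p = 0.0425, edgeR's quasi-likelihood test with Benjamini-Hochberg adjustment over all tested genes). CD34-positive libraries had a mean of 6.66 ± 1.38 CPM, against 20.8 ± 14.2 CPM in CD34-negative a6-high ones (SD, n = 5 each). It was the only gene of the list called, where 1.17% of all tested genes were called, 0.846% higher and 0.321% lower. The call was lost without the a6-high CD34-negative library of KO replicate 1 (-1.20 ± 0.34, adjusted p = 0.173), and also without any one of KO replicates 1 and 2 or WT replicates 1 and 3 among the CD34-positive libraries, or of WT replicates 1 and 2 among the CD34-negative ones (adjusted p between 0.0783 and 0.184). Irf9 was lower in CD34-positive cells in all 5 replicate numbers, and its libraries did not overlap.

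Of the 33 tested genes 30 were lower in CD34-positive cells, with a median log2 difference of -1.51, against -0.02 over all tested genes. Without the KO replicate 1 library of CD34-negative a6-high cells the median was -0.34, so a single library carried most of it. With Ifit3 and Mx2, each at 0 counts in a whole group, put at 3 counts per library, the median over all libraries was -1.53. The next by p did not pass: Oasl1 differed by 3.44 ± 0.87 (adjusted p = 0.0755), Xaf1 by -3.20 ± 0.83 (0.0829), Ifi27l2a by -3.40 ± 0.93 (0.0948), Isg15 by -2.07 ± 0.59 (0.109) and Oas1a by -2.27 ± 0.69 (0.124), all log2 differences with SE. Without the KO replicate 1 library named above Xaf1 differed by -1.08, Oas1a by -1.23 and Oasl1 by 5.82. Irf9 and Xaf1 had all CD34-positive libraries below all CD34-negative ones, which held for 1.64% of tested genes, and Oasl1 had them all above, which held for 2.55%.

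Libraries with the same genotype and replicate number deviated together in this comparison, though with 2 KO libraries per group the KO pairs mirror each other, so that the 5 pairs hold 4 separate values. A fit that blocks on them called 5 genes of the list among 5.41% of all tested genes. Irf9 (-1.56 ± 0.27, adjusted p = 0.01), Ifi27l2a (-3.39 ± 0.81, adjusted p = 0.0397), Oasl2 and Cxcl10 were lower in CD34-positive cells in that fit. Oasl1 was higher, at 3.65 ± 0.82 (adjusted p = 0.0315). Within KO replicate 1, 33 of the 34 genes were lower in the CD34-positive library, 29 of them by at least 1 on the log2(CPM + 1) scale, with a median difference of -2.27. The other replicates had medians of -0.08 in KO replicate 2 and of -0.05, -0.04 and -0.12 in WT replicates 1, 2 and 3, with 17 or 18 genes lower in each. In all 5 replicate numbers 8 genes were lower, namely Irf9, Oas1a, Oas3, Ifi27l2a, Cxcl10, Parp14, Xaf1 and Herc6, where 10.2% of tested genes were. Oasl1 alone was higher in all 5, as were 10.1% of tested genes.

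**Figure D3:**
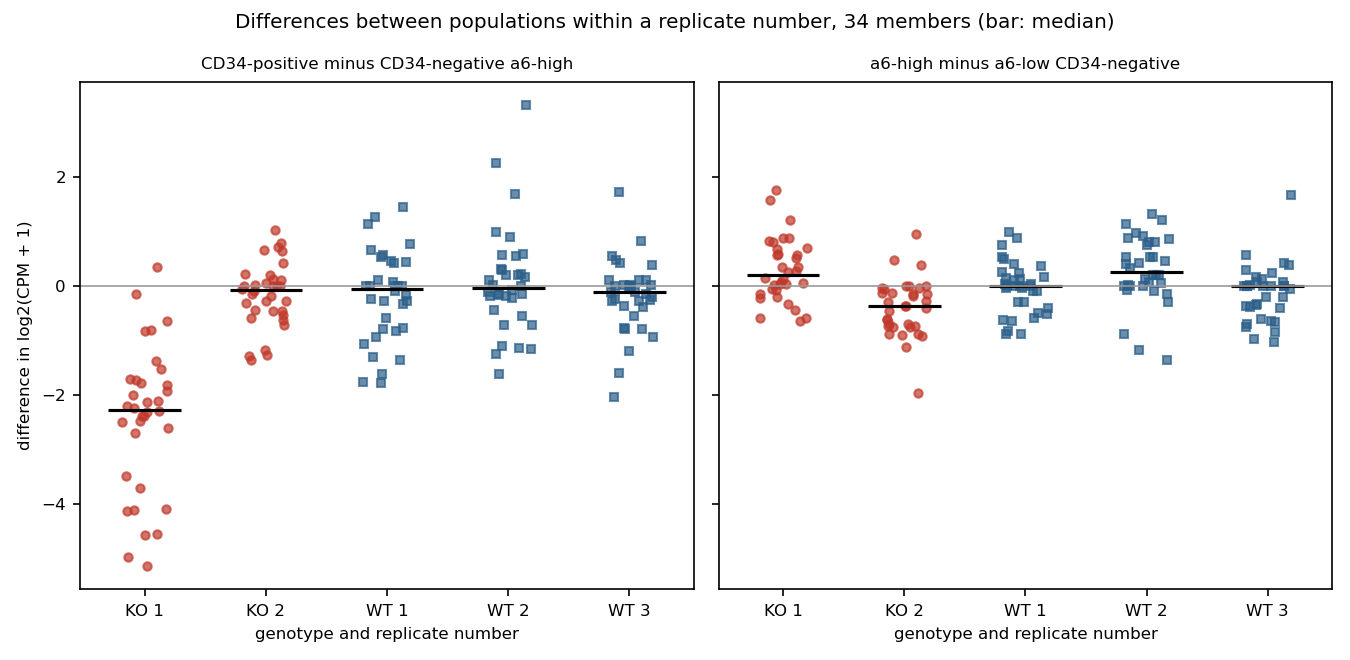
Difference in log2(CPM + 1) of each of the 34 genes between libraries of the same genotype and replicate number, CD34-positive minus CD34-negative a6-high cells on the left and a6-high minus a6-low CD34-negative cells on the right; each point is a gene and the bar is the median. On the left KO replicate 1 has a median of -2.27 and the other 4 lie between -0.12 and -0.04, while on the right all medians are between -0.37 and 0.26.

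CD34-negative a6-high cells were compared with CD34-negative a6-low cells in the same way. The labels were kept, though the a6-low libraries of KO replicate 2 and WT replicate 1 had Itga6 at the a6-high level. No gene of the list was called by edgeR's quasi-likelihood test, where 1 gene (0.00683%) was called among all tested, and DESeq2 called no gene of the list either. Unadjusted p was under 0.05 for 2 genes. The median log2 difference over 33 genes was 0.16, with 21 higher in a6-high cells, against -0.02 over all genes. It was -1.03 without the a6-high and 0.92 without the a6-low library that KO replicate 1 contributed, so its direction followed whichever of the 2 high libraries was kept.

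Ifit2 had the smallest p, with a log2 difference of 1.44 ± 0.55 (SE, adjusted p = 0.369), and Isg20 followed with -0.99 ± 0.39 (0.379). Oasl1 differed by -1.63 ± 0.88 (0.534), and by -4.01 without the a6-high library of KO replicate 1. Isg20 differed by -0.37 once KO replicate 2 of the a6-low cells was left out. Mx1 had a fitted difference of 2.93 ± 1.62 (0.555), which depends on the fit's handling of 0 counts because all 3 WT a6-low libraries had none, and was 0.58 without WT replicate 2 of the a6-high cells. Isg15 and Herc6 were higher in a6-high cells in all 5 replicate numbers, as were 7.94% of tested genes, and Ifih1 was lower in all 5, as were 6.85%. With Ifi44, Ifit3, Mx1 and Oas2, each at 0 counts in a whole group, put at 3 counts per library, the median difference was 0.05.

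KO was compared with WT in each population and on counts summed per genotype and replicate number. No gene of the list was called in any of the 4 comparisons by edgeR's quasi-likelihood test, where 0.00683% of tested genes were called in each population and 0.00641% in the sums. DESeq2 called none in the 3 populations and 1, Cxcl10, in the sums. The genes were nonetheless mostly higher in KO CD34-negative cells. In a6-high CD34-negative cells 30 of 33 were higher, with a median log2 difference of 2.14 and unadjusted p under 0.05 for 18, and in a6-low cells 32 of 33 were higher, with a median of 2.24 and 19 such genes. Medians over all genes were 0.05 and 0.04. In CD34-positive cells 10 of 33 were higher and the median was -0.54, with 1 gene at unadjusted p under 0.05, against 0.01 over all genes. The sums had 26 of 30 tested genes higher, a median of 1.70 and 12 such genes.

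These medians rested on KO replicate 1. Without its library the median was -0.48 in CD34-negative a6-high cells, 0.63 in a6-low cells and -0.03 in the sums. The negative median in CD34-positive cells rested in turn on WT replicate 2, and was 0.14 without it, whereas it was -1.19 without KO replicate 2. With genes at 0 counts in a whole group put at 3 counts per library, the median in a6-low cells was 2.01. Ifit3, Mx1, Rsad2 and Ifi44 did not pass the filter on low counts without both CD34-negative libraries of KO replicate 1. Their place among the tested genes, and in these medians and tallies, thus rests on those libraries.

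**Figure D4:**
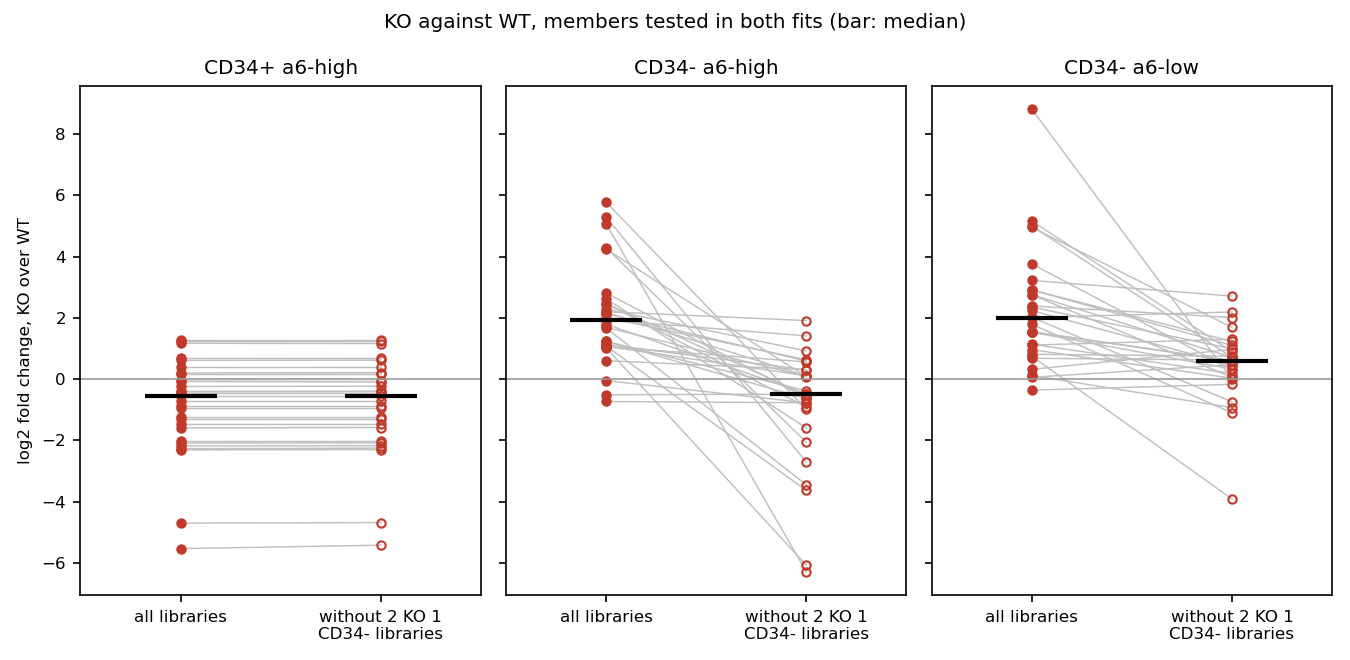
Fitted log2 fold change, KO over WT, of each tested gene of the list in the 3 populations, with all libraries and without the CD34-negative a6-high and a6-low libraries of KO replicate 1; each point is a gene and genes tested in both fits are shown. In both CD34-negative populations most points move down when these libraries are left out, and a few, such as Ifitm3, move up.

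In a6-high CD34-negative cells the smallest p belonged to Rsad2, at a log2 fold change of 5.55 ± 1.60 (SE, adjusted p = 0.498), on few counts, and Isg15, at 2.28 ± 0.79 (0.498). Without the library of KO replicate 1 they were 2.29 and 0.92. Rsad2 did not pass the filter on low counts without both CD34-negative libraries of this replicate. In a6-low cells the smallest p belonged to Parp14, at 2.39 ± 0.76 (0.865), and Oas1a, at 2.91 ± 0.93 (0.865), which was 1.12 without the library of KO replicate 1. In CD34-positive cells the smallest were those of Ifitm3, at -1.30 ± 0.44 (0.652), and Oasl1, at -2.18 ± 1.1 (0.653). In the sums Cxcl10 differed by 1.99 ± 0.46, Parp14 by 1.88 ± 0.50 and Ifi27l2a by 2.62 ± 0.70 (each adjusted p = 0.461). Without KO replicate 1 the difference was 1.15 for Parp14 and 0.95 for Ifi27l2a. The summed Cxcl10 level was 215 and 242 CPM in KO, against 74.4, 61.4 and 20.8 CPM in WT, and its groups did not overlap. For this gene DESeq2 gave an adjusted p of 0.00753.

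Each KO library can also be set against the 3 WT libraries of its population. The KO replicate 1 library of CD34-negative a6-high cells was above all WT for 32 of the 34 genes (31.4% of tested genes), and that of replicate 2 for 7 (30.8%). The a6-low library of replicate 1 was above all WT for 29 (22.7%) and that of replicate 2 for 20 (32.1%). The CD34-positive libraries were above all WT for 5 genes in replicate 1 (29.0%) and 4 in replicate 2 (28.4%), and below all WT for 7 (27.2%) and 6 (24.1%). The KO replicate 2 library of CD34-negative a6-high cells was below all WT for 7 genes (26.7%) and that of replicate 1 for Ifitm3 alone (25.4%). Below all WT in a6-low cells were Isg20 in replicate 1 (20.8%) and Herc6 in replicate 2 (25.1%). In a6-low cells replicate 2 thus also lay above WT for many of the genes, at 5.35 CPM of Oas1a, for example, where replicate 1 had 32.2 CPM.

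Both KO libraries were above all WT libraries for 2 genes in CD34-positive cells (14.9% of tested genes), for 7 in CD34-negative a6-high cells (16.5%) and for 18 in a6-low cells (8.51%). They were below for 3 genes in CD34-positive cells (13.2%), 1 in CD34-negative a6-high cells (13.7%) and none in a6-low cells (6.39%). Eif2ak2 was above WT in all 3 populations, and its log2 fold changes were 0.68 ± 0.37, 1.06 ± 0.37 and 0.81 ± 0.37 (SE; adjusted p = 0.656, 0.498 and 0.865). The share of all tested genes above WT in all 3 was not counted, so this does not single out Eif2ak2. In the sums 8 tested genes were above WT without overlap, as were 24.5% of all. Only KO replicate 2 had Ddx3y at 51.8 CPM or more, against at most 0.222 CPM in any WT library. In KO replicate 2 that difference and genotype cannot be told apart. KO replicate 1 had at most 0.0363 CPM of Ddx3y. The Ddx3y difference thus also runs with the contrast between the KO replicates and cannot be told apart from it.

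Whether the CD34 difference itself differed between genotypes was tested as an interaction. No gene of the list was called by edgeR's quasi-likelihood test, nor any of all tested genes (0.0%). The interaction was negative for all 33 genes, with a median of -2.86 on the log2 scale (-2.68 with Ifit3 and Mx2 put at 3 counts per library) and unadjusted p under 0.05 for 7, and the median was -0.10 without the KO replicate 1 library of CD34-negative a6-high cells. Isg15 had an interaction of -3.22 ± 1.18 (adjusted p = 1.0), which was -1.85 without that library. Ifit1 had -10.47 ± 3.60 (adjusted p = 1.0), which became -1.16 without WT CD34-positive replicate 2, its only WT library with more than 1 CPM. For the a6 difference, again with none of all tested genes called (0.0%), no gene of the list reached an unadjusted p under 0.05 and the median was -0.07, or 0.07 with groups at 0 put at 3 counts per library. That median was -2.44 without the a6-high and 1.35 without the a6-low library that KO replicate 1 contributed, and -0.98 without both. Ifit2 had 2.29 ± 1.1 and Isg20 -1.05 ± 0.78 in it (adjusted p = 1.0 each).

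Other genes of the pathway were followed as fixed lists, written with earlier results of these data known. Of 21 interferon ligands 11 had a row. Ifng was at 0 counts in all 15 libraries, which allows at most 0.333 CPM in the shallowest. Ifnb1 had 24 counts in all and at most 0.539 CPM, in the a6-low library of KO replicate 2. Ifnl2 (interferon lambda) had 0.417 and 0.327 CPM in the CD34-negative a6-high and a6-low libraries of KO replicate 1, against at most 0.207 CPM in the others, and Ifnl3, a near-identical copy, had 0.227 and 0.109 CPM there and none elsewhere. Over all libraries Ifnl2 had 32 and Ifnl3 9 counts. The other 10 ligands were not analysed here.

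Among receptor and signalling genes, the receptor subunit Ifnar1 had 23.9 and 18.7 CPM in the CD34-negative a6-high and a6-low libraries of KO replicate 1, within the 11.0 to 47.5 CPM of the other 13. Of 20 sensing and adaptor genes 2 had both libraries above (2 of the 17 tested), against 2.21% of all tested genes. They were Adar at 21.4 and 20.5 CPM, against 4.58 to 12.5 CPM, and Samhd1 at 67.5 and 137 CPM, against 13.7 to 62.7 CPM. Both are known to be interferon-inducible.

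Targets of interferon gamma showed the pattern in 12 of 18 (12 of the 16 tested), against 2.21% of all tested genes. Cxcl9, a chemokine, had 191 and 233 CPM in the CD34-negative a6-high and a6-low libraries of KO replicate 1, against 0 to 10.8 CPM in the other 13. Gbp2, a guanylate-binding protein, had 100.5 and 64.6 CPM, against 0.813 to 9.91 CPM, and the immunity-related GTPase Iigp1 had 68.6 and 39.6 CPM, against at most 0.414 CPM. Irf1 had 263 and 246 CPM but reached 298 CPM elsewhere. In KO over WT of CD34-negative a6-high cells 16 of 16 tested targets were higher, with a median log2 fold change of 4.13, where 53.6% of all tested genes were higher, with a median of 0.05. Some targets had few counts outside KO replicate 1. Tgtp1 was at 0 in 10 libraries and Tgtp2 in 8, so such fold changes depend on the fit's handling of 0 counts. Whether these genes would pass the filter, or the median hold, without KO replicate 1 was not tested. The 18 targets summed to 786 and 227 CPM in KO replicates 1 and 2 of CD34-negative a6-high cells, against 168, 277 and 70.4 CPM in WT. By this sum KO replicate 2 lay within the WT range, but Irf1 alone had a median of 150.3 CPM over all 15 libraries. As mean log2(CPM + 1) of the 18, the KO libraries had 3.63 and 1.16, against 1.05, 1.14 and 0.81 in WT. By that measure KO replicate 2 lay just above WT. Of the 25 paralogs of the listed genes 7 had both libraries above (6 of the 17 tested), against 2.21% of all tested genes. Among them were Oas1g (13.2 and 15.2 CPM, against at most 2.07 CPM) and Parp9 (39.7 and 40.7 CPM, against 4.64 to 12.4 CPM). Oas1g and Oas1a are near-identical copies, and reads that align to both were not counted, so their split is uncertain.

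No gene of these lists was called in any comparison. In the CD34 comparison the smallest p of each list belonged to Cxcl9 (log2 difference -4.77 ± 1.12, adjusted p = 0.0599), Oas1e (-3.75 ± 0.88, 0.0599), Socs3 (-0.83 ± 0.23, 0.105) and Tmem173, which encodes the adaptor STING (-1.90 ± 0.60, 0.142). In the a6 comparison it belonged to Myd88 (-0.56 ± 0.15, adjusted p = 0.243), Oas1f (-2.27 ± 0.81, 0.343), Ifngr2 (-0.55 ± 0.21, 0.364) and Irf8 (-1.37 ± 0.97, 0.664).

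**Figure D5:**
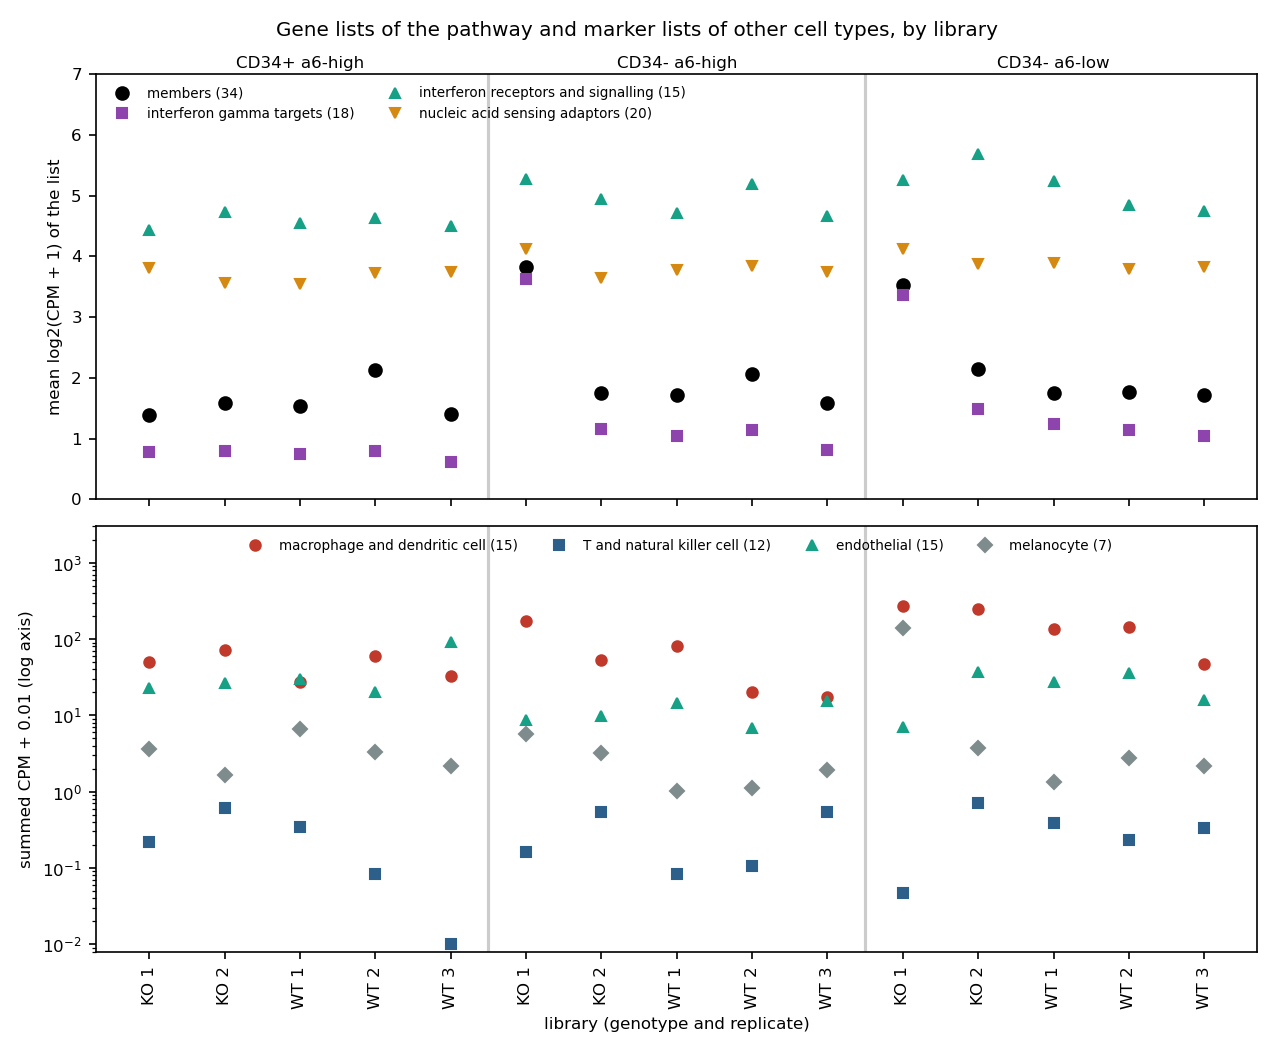
Gene lists in each of the 15 libraries, KO left of WT within each population. The top panel gives the mean log2(CPM + 1) of the 34 interferon response genes, of interferon gamma targets, of receptors and signalling genes and of sensing and adaptor genes; the bottom panel gives the summed CPM of marker lists on a log axis, with 0.01 added. The 34 genes reach 3.83 and 3.53 in the CD34-negative libraries of KO replicate 1, against 1.39 to 2.14 elsewhere, and the T and natural killer cell list stays at or below 0.705 CPM everywhere.

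Sorted libraries can hold RNA of other cells, and in bulk RNA fewer cells of a type and less RNA per cell cannot be told apart. The 12 T and natural killer cell markers with a row summed to 0.152 and 0.0363 CPM in the CD34-negative a6-high and a6-low libraries of KO replicate 1, against 0 to 0.705 CPM in the other 13, and Cd8a and Ncr1 were at 0 in all 15. The 15 macrophage and dendritic cell markers summed to 174 and 269 CPM, against 17.4 to 245 CPM, and none of the 15 had both libraries above the rest. Within that list Cd74 had 114 and 133 CPM, against 0.460 to 155 CPM, and C1qa 0.682 and 6.72 CPM, against 0 to 7.32 CPM. The 7 plasmacytoid dendritic cell markers summed to 3318 and 4916 CPM, within the 1581 to 6123 CPM of the other 13. Of these 7 markers 2, Siglech and Bst2, had both libraries above the rest (1 of the 4 tested), against 2.21% of all tested genes. Siglech had 0.0379 and 0.182 CPM, on few counts, and was at 0 elsewhere. Bst2 is on both that list and the one described here.

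The 15 endothelial markers summed to 8.75 and 6.94 CPM, against 6.88 to 90.9 CPM. The 7 melanocyte markers summed to 5.61 CPM in the CD34-negative a6-high but to 141 CPM in the a6-low library of KO replicate 1, against 1.01 to 6.60 CPM, with Dct at 52.7 CPM in the a6-low library. Of these 7 markers 3 had both libraries above the other 13 (2 of the 5 tested), against 2.21% of all tested genes. Tyrp1 had 1.25 and 63.1 CPM, against at most 0.622 CPM, Tyr had 0.265 and 6.97 CPM, against at most 0.143 CPM, and Mitf had 0.985 and 0.981 CPM, against at most 0.611 CPM. Summed B cell markers were at most 0.998 CPM and fibroblast markers at most 5.01 CPM in any library, and keratinocyte markers summed to 69489 and 62319 CPM in the a6-high and a6-low library of KO replicate 1.

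Marker lists also differed between KO and WT, with no marker called. Of 11 tested macrophage and dendritic cell markers 10 were higher in KO CD34-positive cells, 10 in KO CD34-negative a6-high cells and 9 in KO a6-low cells, with median log2 fold changes of 3.76, 2.49 and 1.0. The interferon response genes had medians of -0.54, 2.14 and 2.24 there. In WT CD34-positive libraries 7 to 10 of the 15 macrophage and dendritic cell markers were at 0 counts. These 15 summed to 49.7 and 71.5 CPM in KO CD34-positive cells, against 27.1, 59.9 and 33.2 CPM in WT. The sums were 174 and 52.4 CPM, against 80.2, 20.1 and 17.4 CPM, in CD34-negative a6-high cells. They were 269 and 245 CPM, against 134, 142 and 46.5 CPM, in a6-low cells. Only the a6-low groups did not overlap. Of 5 tested melanocyte markers 2, 5 and 5 were higher in KO, with medians of -0.39, 2.11 and 3.17, and of 5 Langerhans cell markers 3, 4 and 5, with medians of 0.58, 0.81 and 0.99. The 11 tested endothelial markers were mostly lower in KO, with medians of -0.94, -0.51 and -0.86. The part of other cell types in the results for the interferon response genes was not tested.

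Genes of similar profile were ranked by Pearson's correlation of log2(CPM + 1) with the mean standardized level of the 33 tested genes, over 15 libraries and among 12148 named genes outside the lists. The first 10 were Ddx60, Apol9b, Apol10b, Ear2, Batf2, Trim12c, Ifi47, Il18bp, Gbp2b and Lgals3bp, with r between 0.91 and 0.95. Ifi47, an immunity-related GTPase, had 45.4 and 33.3 CPM in the CD34-negative a6-high and a6-low libraries of KO replicate 1, against at most 0.546 CPM in the other 13. Lgals3bp had 15.3 and 14.6 CPM, against 0.0957 to 2.33 CPM. The libraries share genotypes, populations and replicate numbers, and 2 lie far from the rest. By Spearman's rho 0 of these 10 were among the first 10. Tap1, a peptide transporter of antigen presentation, ranked 12 by Pearson's r and 1 by Spearman's rho (0.89 by each) and was named after its values were seen, with 96.1 and 90.2 CPM, against 10.8 to 37.3 CPM. Within the list itself the least alike to the mean of the others were Isg20 (r = -0.29), Oasl1 (-0.05), Ifitm3 (0.10), Ifit2 (0.18) and Trim25 (0.48).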

How the data were processed

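Libraries came from cDNA made with SMART-Seq v4, per the labels' protocols, a kit whose reads carry no strand. The authors deposited raw counts, 1 whole number for each Ensembl gene and library. The submitters' processing notes name mm9 as the build and STAR 2.3.0, HTSeq 0.6.0 and Picard 1.100 as tools, without their roles. The sources used here do not give the annotation release. The 5 closing entries of each table that name no gene were left out; in them, reads aligned to several places were 29.86% to 38.04% and reads outside genes 2.61% to 5.13% of the records. Symbols came from GENCODE M21 by identifier (32860 genes, 87.4%). Exon lengths and exon overlaps between genes were also taken from it, and none of its coordinates are printed.

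The test was the quasi-likelihood F test of edgeR 4.0.16 (R 4.3.3) with TMM scaling and filterByExpr, fitted once to all 15 libraries with a term for each genotype and population (14652 genes). P-values were adjusted by Benjamini-Hochberg within a comparison, with a threshold of 0.05, and standard errors follow from the log2 difference and its F value. Counts were also summed over the libraries of 1 genotype and replicate number, to test KO against WT (15597 genes). CPM used TMM-scaled totals. The tests were tried on simulated counts. No 2 replicates were alike within sampling noise, with chi-square between 38.5 and 304 for each degree of freedom. Correlations of same-numbered libraries' deviations were 0.136 to 0.473 for the CD34 comparison, over 0.1 in all 5. The data and not the labels thus support pairs there, but the main fit and its p-values did not use them. Only the replicate block, an alternative, did. The correlations were 0.0353 to 0.465 for a6 and -0.396 to 0.0607 between genotypes, and so not over 0.1 in every pair.

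The genes and lists were chosen with earlier results of these data known. Library values are printed for genes called in any comparison, the 6, 4 and 3 with the smallest p for CD34, a6 and the sums, the 2 with the smallest p in each other comparison, and the 5 highest in CPM per kb; other genes by range. Of further lists the rule names Irf1, Ifnar1, Ifnb1, another not reported here and the gene with the smallest p for CD34 and a6; others were named after their values were seen. As alternatives the fit was rerun with DESeq2 1.42.0, with DESeq2's size factors, without the low-count filter, with a minimum of 10 CPM in 2 libraries, on the compared groups only, with a replicate block and without single libraries.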

Additional observations from a re-analysis of the deposited data

How the results depend on the processing

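In the CD34 comparison the fit called 1 gene of the list. DESeq2 called 8, no filter on low counts 19, and the replicate block, in which same-numbered libraries are paired, 5. Leaving out each library gave 0 to 2. Without both CD34-negative libraries of KO replicate 1, or without the 3 libraries of KO replicate 1, it was 0; these 2 alternatives were chosen after seeing the data. The call of Irf9 was lost in 10 of 19 alternatives (adjusted p between 4.99e-06 and 0.225). In KO against WT no filter on low counts gave 2 genes in CD34-positive, 15 in CD34-negative a6-high and 14 in a6-low cells, against 0 in the fit, and 4 against 0 in the interaction of CD34 and genotype. In the sums DESeq2 gave 1, Cxcl10, and leaving out each replicate 0 to 1. The a6 comparison and its interaction stayed at 0 in every alternative run, and the replicate block changed no other count of listed genes. The interaction of a6 and genotype for Isg20, -1.05, ran from -1.75 to 0.21 when libraries were left out. It was 0.17 without KO a6-low replicate 2, 0.10 without the 2 a6-low libraries that have as much Itga6 as a6-high ones and 0.21 without the 3 libraries of KO replicate 2; the cause was not tested. On raw totals 29 genes, not 28, peaked in a CD34-negative library of KO replicate 1. Calls over all tested genes ran from 7 to 1242 for CD34 (171 in the fit), from 0 to 602 for a6 and up to 256 for KO against WT in a population (1 in each fit), and up to 143 in the sums (1). The counts of listed genes in the alternatives are not set against these calls fit by fit. They are thus no result about the list in particular. Many listed genes were under 1 CPM in most libraries, where few counts make each value imprecise.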
